A study of Homo sapiens with 3 samples.

Results

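The genes described here are 10 transport genes of the mature renal tubule: LRP2, CUBN, AQP1, AQP2, UMOD, SLC12A1, SLC12A3, SLC34A1, SLC22A6 and SLC5A2. Their probe sets were taken as those that the platform annotation pairs with a listed gene symbol. This gave 18 probe sets of 9 genes, out of 54675 probe sets and 19775 genes with a probe set of their own, and each of the 18 was listed for 1 gene. UMOD had no probe set listed. The cells were HEK-293T (CRL-11268), a line derived from human embryonic kidney that, per the sample records, carries an inserted temperature-sensitive gene for the SV40 T-antigen. All cultures were untreated, in DMEM with 10% heat-inactivated serum and antibiotics. Harvests at 48 h after seeding were made of a culture started from 375000 cells, called the sparse 48 h culture here, and of one started from 750000, the dense 48 h culture. The remaining culture was started from 1000000 cells and taken at 24 h. Total RNA of each was hybridized to its own 1-color Affymetrix U133 Plus 2.0 array. The study used these arrays to find which genes the line expresses, so the question here was whether transport genes of the adult tubule were detected above background in it.

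The renal tubule reclaims most of what the glomerulus filters, and each segment does so with its own set of membrane proteins. In the proximal tubule, megalin (LRP2) and cubilin (CUBN) take up filtered proteins by endocytosis, the sodium-coupled carriers SLC34A1 and SLC5A2 reabsorb phosphate and glucose, SLC22A6 imports organic anions from the blood side, and AQP1 passes water. The thick ascending limb makes uromodulin (UMOD) and the loop-diuretic target SLC12A1, the distal convoluted tubule the thiazide target SLC12A3, and the collecting duct the vasopressin-regulated water channel AQP2. These genes are used as markers of differentiated tubule cells.

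None of the 9 measured genes was above background on all 3 arrays. The signal is an intensity on a linear scale. To count as above background it had to exceed, on each array, the 95th percentile of a reference of 320 probe sets. The reference covered 217 genes that are normally silent in kidney, including olfactory and bitter taste receptors. This threshold was 117.3 in the sparse 48 h, 111.7 in the 24 h and 137.0 in the dense 48 h culture. By the same rule 49.7% of all genes and 36.4% of all probe sets were above background. Genes with more probe sets have more chances to pass, and among genes with at most 3 probe sets, the most that any member had, the share was 45.3%. No p-value belongs to these calls, since they rest on a threshold, and a transcript whose signal stays under it is not detectable here rather than absent. The absent/present calls of the study were not used here. Signals come from the whole RNA of a culture, so fewer expressing cells and less RNA per cell cannot be told apart.

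LRP2, the large endocytic receptor of the proximal brush border, was the member closest to the threshold by its lowest array. Probe sets differ in brightness for the same amount of RNA, so this does not rank the members by expression. The LRP2 probe set 205710_at gave 168.0 in the sparse 48 h, 110.8 in the 24 h and 217.7 in the dense 48 h culture (165.5 ± 53.5, SD, n = 3 arrays). It lay over the threshold in both 48 h cultures, at 1.43 and 1.59 times its value, and just under it in the 24 h culture, at 0.992 times. With the 90th percentile as threshold, with receptors alone as reference, with 2 arrays sufficing or without the 24 h array, LRP2 was above background, and it was the single member that was. The second LRP2 probe set, 230863_at, gave 111.6, 6.93 and 151.1 in the same order of cultures. It passed the threshold in the dense 48 h culture alone, and its arrays differed 21.8-fold, the widest gap of any member.

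**Figure D1:**
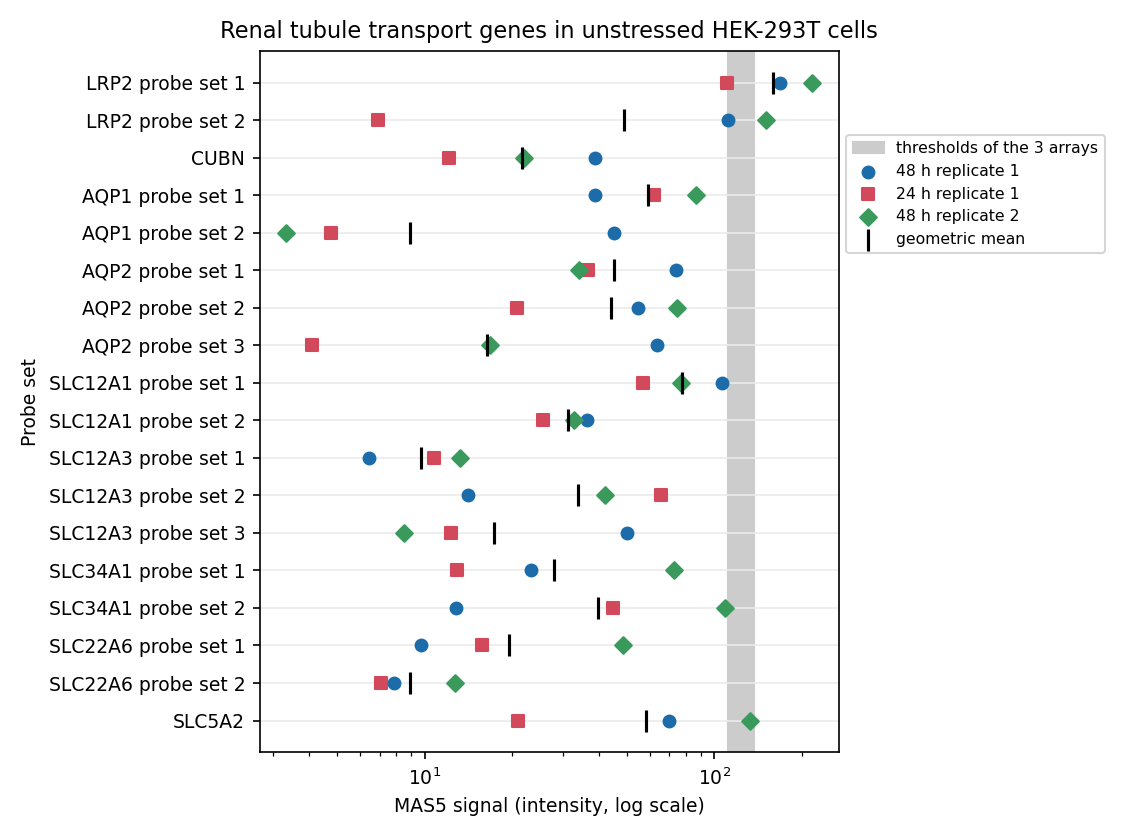
MAS5 signals (intensity, log scale) of the 18 probe sets of 9 tubule transport genes in 3 HEK-293T cultures, 48 h replicate 1 being the sparse and 48 h replicate 2 the dense 48 h culture. Each symbol is an array, ticks are geometric means and the grey band spans the thresholds from 111.7 to 137.0; no probe set has all 3 arrays right of the band, and the first of LRP2 comes closest.

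CUBN, the partner of LRP2 that binds vitamin B12 complexes and albumin, gave 38.6 in the sparse 48 h, 12.1 in the 24 h and 21.97 in the dense 48 h culture (24.2 ± 13.4, SD, n = 3 arrays). All 3 values were at most 0.329 times the threshold, against 0.992 or more for the first LRP2 probe set. Within the reference, CUBN stood at percentiles 65.6, 39.4 and 44.1, so its signal was in the range given by genes of other tissues.

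The sodium-coupled carriers of the proximal tubule among the members, SLC5A2 and SLC34A1, did not pass on any array. SLC5A2, the main glucose carrier of the early proximal tubule, gave 69.7, 21.0 and 132.6 in the sparse 48 h, 24 h and dense 48 h cultures, which is 0.968 times the threshold at its highest and 0.188 times at its lowest. SLC34A1, the main phosphate carrier of the brush border, gave 23.3, 12.97 and 72.7 on one probe set and 12.9, 44.8 and 108.9 on the other. Every probe set of both genes was brightest in the dense 48 h culture, and the values of each spanned at least 5.6-fold.

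SLC22A6, the organic anion transporter that loads drugs such as p-aminohippurate into proximal cells, gave 9.75, 15.8 and 48.2 on one probe set and 7.86, 7.07 and 12.8 on the other, in the same order of cultures. Both are marked by the manufacturer (_s_at or _x_at) as possibly matching more than the intended transcript, and they reached at most 0.352 times the threshold. AQP1, the water channel of the proximal tubule and thin descending limb, gave 38.9, 61.7 and 86.6 (62.4 ± 23.8, SD, n = 3 arrays) on a probe set of the same kind. Its other probe set gave 45.0, 4.75 and 3.33, so the pair of AQP1 probe sets did not rank the cultures alike.

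SLC12A1, which takes up sodium, potassium and chloride in the thick ascending limb, came next after LRP2 by the lowest of the 3 arrays. With 2 arrays sufficing or without the 24 h array, SLC5A2 was ahead of it, at 0.594 against 0.560 times the threshold. Its first probe set, 1554842_at, gave 105.9 in the sparse 48 h, 56.8 in the 24 h and 76.7 in the dense 48 h culture (79.8 ± 24.7, SD, n = 3 arrays). These values were 0.903, 0.508 and 0.560 times the threshold, so none passed. The second probe set gave 36.4, 25.6 and 32.9 and had the smallest gap between arrays of all members, 1.42-fold.

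SLC12A3, the sodium chloride carrier of the distal convoluted tubule, reached at most 0.587 times the threshold on its 3 probe sets. They gave 6.45, 10.8 and 13.3, then 14.1, 65.5 and 41.9, then 49.99, 12.3 and 8.49 in the sparse 48 h, 24 h and dense 48 h cultures. Each probe set was brightest in a different culture. AQP2, the channel that vasopressin moves to the apical membrane of collecting duct cells, gave 73.9, 36.5 and 34.2 on its first probe set, 54.5, 20.9 and 74.0 on its second and 63.6, 4.09 and 16.9 on the remaining one. No AQP2 value exceeded 0.630 times the threshold, and the 24 h culture was lowest on the latter pair but not on the first.

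As a set, the member probe sets lay inside the distribution of the reference. Their median signal was 42.0 in the sparse 48 h, 18.3 in the 24 h and 45.1 in the dense 48 h culture, against 20.8, 17.0 and 25.3 for the reference and 71.0, 72.8 and 80.3 for all probe sets. The median member stood at percentiles 68.3, 51.6 and 66.3 of the reference. On single arrays 1, 0 and 2 of 18 passed the threshold, or 5.56%, 0% and 11.1%, where 5% of the reference pass by construction and 40.4%, 41.8% and 39.6% of all probe sets did. Of the 18, 7 exceeded the median of the reference on all 3 arrays and 2 on none.

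**Figure D2:**
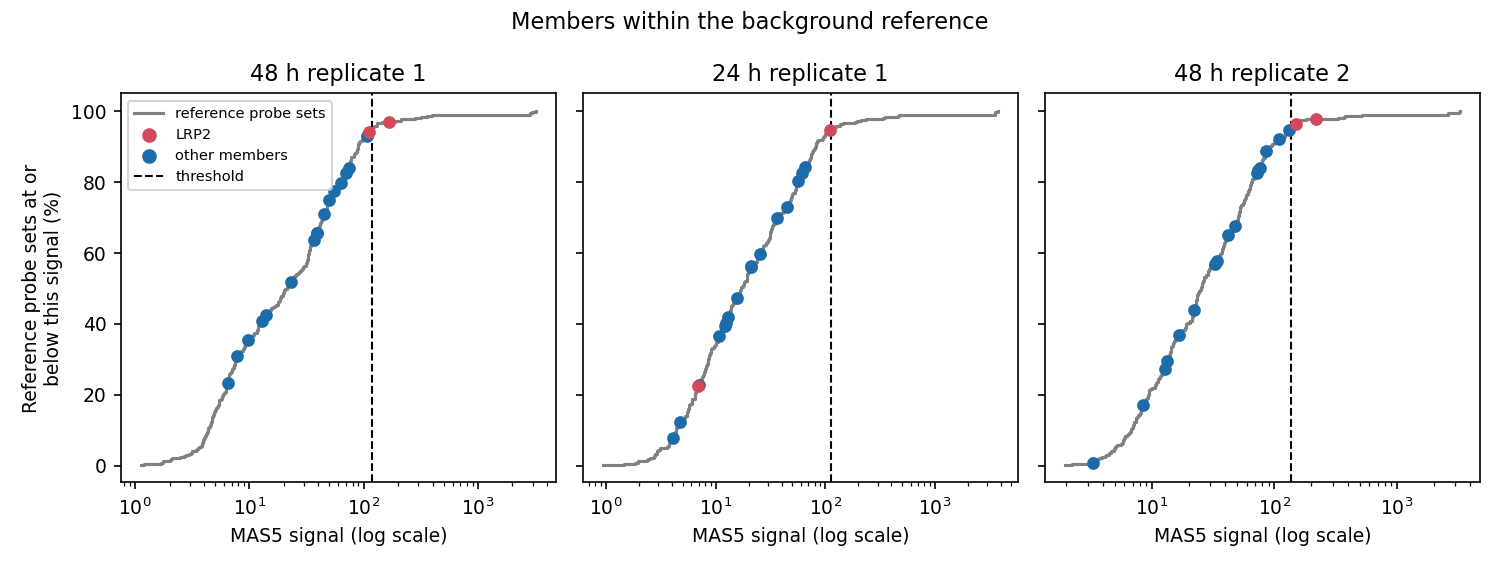
Signals of the 18 member probe sets (points) on the cumulative distribution of the 320 reference probe sets (grey line), one panel for each array, with MAS5 signal on a log axis and the percentage of reference probe sets at or below it. The dashed line is the threshold at 95%; 1, 0 and 2 members lie to its right.

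Signals at this level differed widely between the arrays, each of which holds a different culture, so array error and culture differences cannot be told apart. Over the 18 probe sets the SD of the log2 signal between arrays ran from 0.26 to 2.45 with a median of 1.05, against a median of 0.92 for the reference and 0.15 for probe sets above background. For 14 of 18 the highest array exceeded the lowest more than 2-fold, and for 7 more than 5-fold. Compared with all probe sets of like level, 9 members had an SD within the quartiles, 6 above and 3 below. Differences of a few fold between member signals in the cultures are therefore of the size found throughout the array at this brightness.

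**Figure D3:**
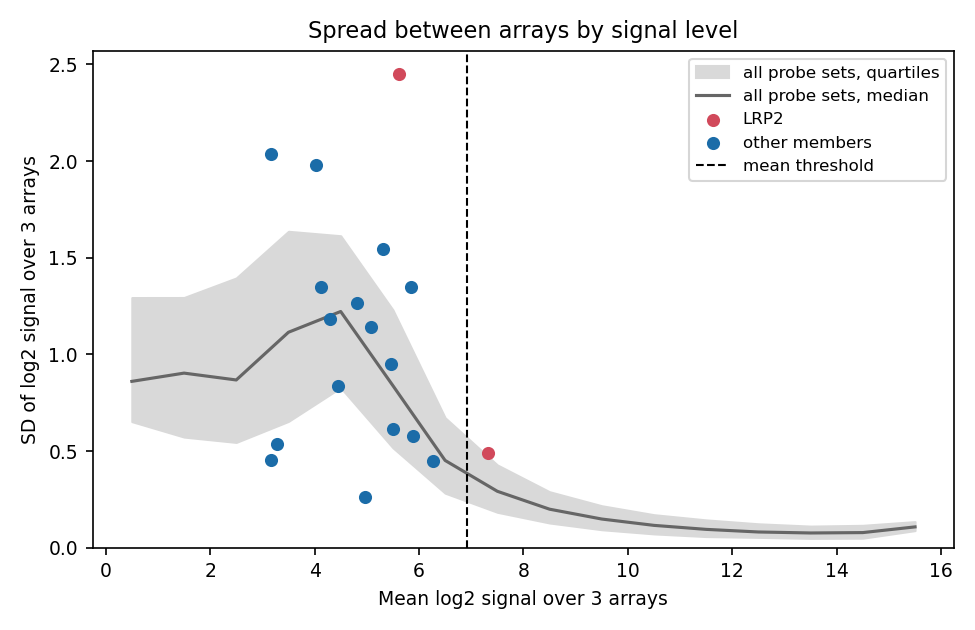
SD of the log2 signal over 3 arrays against the mean log2 signal, for the member probe sets (points) and for all probe sets by level (line, median; grey band, quartiles). Members lie left of the mean threshold (dashed line) except the first LRP2 probe set, in the range where the median SD of all probe sets is between 0.45 and 1.22.

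The cultures differed in harvest time and also in seeding, and these cannot be told apart with any batch. Only 1 member probe set, the first of LRP2, was bright enough on average to enter the comparison of the 24 h culture with both 48 h cultures. Its log2 difference, 24 h minus 48 h on the log2(signal + 21.7) scale, was -0.69 (standard error 0.40), and it did not pass the test (limma, adjusted p = 0.629, range 0.625 to 1.0 over the alternatives with a test). Over all 21578 probe sets compared, 0.408% were called. The fit has a lone 24 h array, whose spread had to be taken from the 48 h pair, which differed in seeding, and from other probe sets.

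Without a limit on brightness, 15 of 18 member probe sets had a lower value in the 24 h culture than the mean of the 48 h cultures on the same log2 scale, with a median difference of -0.48. The reference showed 59.1% lower with a median of -0.12, and all probe sets too dim for the comparison 55.1% with a median of -0.07. After quantile normalization or scaling to equal medians 14 of 18 were lower. As deposited, the 24 h value of 10 of 18 lay under both 48 h values, and that of 1 (the second probe set of SLC12A3) above both. In the reference, 128 of 320 lay under both and 83 above both. Of the 33097 probe sets too dim for the comparison, 11968 lay under both and 9528 above both. None of the 18 passed in the fit without the brightness limit, where 0.161% of all probe sets were called and the members' adjusted p was at least 0.537 (limma). The lowest belonged to the second LRP2 probe set at a log2 difference of -2.41. Probe sets of a gene share their target, and those of an array share the hybridization, so these counts are a description.

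The remaining genes of tubule transport were grouped by segment in lists of 65 genes in all, members included. Of the 59 measured, 7 were above background (11.9%), and of the 50 that are no members, the same 7 (14.0%), against 49.7% of all genes. The thick ascending limb had 0 of 7, the collecting duct 0 of 12 and the distal convoluted tubule 1 of 10. The proximal solute transporters had 3 of 24 and the proximal endocytic machinery 3 of 6.

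Of the 6 endocytic genes, the share above background (50%) was near that of all genes. Those above were LRPAP1, a chaperone of LRP-family receptors, at 2931 ± 221 (SD, n = 3 arrays) on 1 of its 3 probe sets, OCRL, an inositol phosphatase of endosomes, at 1226 ± 108, and CLCN5, an endosomal chloride-proton exchanger, at 422.9 ± 92.2. Inherited loss of OCRL or CLCN5 disturbs protein uptake in the proximal tubule. The receptors LRP2 and CUBN and the adaptor DAB2 (64.8 ± 13.05) were not above background.

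Among proximal solute transport genes, SLC47A1, which exports organic cations, gave 780.5 ± 86.2 (SD, n = 3 arrays), and NHERF1, a scaffold that anchors brush border carriers, 966.6 ± 301. The sodium bicarbonate carrier SLC4A4 gave 165.9 ± 23.6 with 1 of its 5 probe sets, 1.22 times the threshold at its lowest. SLC34A3, a second phosphate carrier, gave 200.3, 399.5 and 62.9 and was therefore over the threshold in the sparse 48 h and 24 h cultures and under it in the dense 48 h culture. In the distal convoluted tubule list CNNM2, which takes part in magnesium handling, gave 204.6 ± 18.4 on the best of its 4 probe sets, 3 of which passed. The magnesium channel TRPM6 (68.9 ± 22.8) and the potassium channel KCNJ10 (28.3 ± 20.5) were not above background. Of the thick ascending limb, the potassium channel KCNJ1 gave 11.1 ± 6.06 and the chloride channel subunit BSND 89.8 ± 24.3, and of the collecting duct, AQP3 gave 155.1 ± 51.0 and AQP4 43.0 ± 7.44. None of these passed on every array.

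Genes that regulate tubule transport were above background in 8 of 15 measured cases (53.3%), near the share of all genes. The scaffold kinase WNK1 gave 1914 ± 155 (SD, n = 3 arrays) on the best of its 7 probe sets, 2 of which passed. The kinases STK39 and OXSR1, through which WNK signaling activates SLC12A1 and SLC12A3, gave 1018 ± 185 and 1716 ± 136. CUL3, the cullin of the ligase that marks WNK kinases for degradation, gave 6765 ± 323, and SGK1, a kinase induced by aldosterone, 359.5 ± 5.91. The receptor NR3C2, which binds aldosterone, gave 306.2 ± 30.8, the kidney lineage factor PAX8 411.9 ± 145 with 1 of 8 probe sets, and the nuclear receptor ESRRG 195.5 ± 64.7. HNF4G (82.1 ± 5.64), TFCP2L1 (55.7 ± 18.6) and FOXI1 (36.05 ± 28.1), transcription factors of proximal or collecting duct cells, were not above background. The same held for KLHL3 (88.0 ± 9.82) and the kinase WNK4 (28.6 ± 31.2) of this list.

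More widely used relatives of the members were above background in 15 of 24 cases (62.5%), against 49.7% of all genes. SLC20A1, a phosphate carrier of most cells, gave 5510 ± 428 (SD, n = 3 arrays) where the kidney carrier SLC34A1 was not detected. SLC5A3, a sodium-coupled inositol carrier of the family of SLC5A2, gave 2340 ± 208, and the vitamin carrier SLC5A6 1612 ± 63.2. The sodium pump subunits ATP1B3 and ATP1B1 gave 13138 ± 628 and 2312 ± 313. SLC12A2, the relative of SLC12A1 that most cells use and that was singled out after its values were seen, gave 968.4 ± 179 with both probe sets above background. The relatives of LRP2 were divided. LRP1 (55.9 ± 35.6), LRP5 (149.7 ± 38.6) and VLDLR (84.5 ± 0.614) were not above background, while LRP6, a Wnt co-receptor, gave 731.0 ± 30.9 and LRP8, a reelin receptor, 461.8 ± 41.2, and both were above it. LRP6 and LRP8 were also singled out after their values were seen. Each gene was set only against the threshold, since probe sets differ in brightness for the same amount of RNA.

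**Figure D4:**
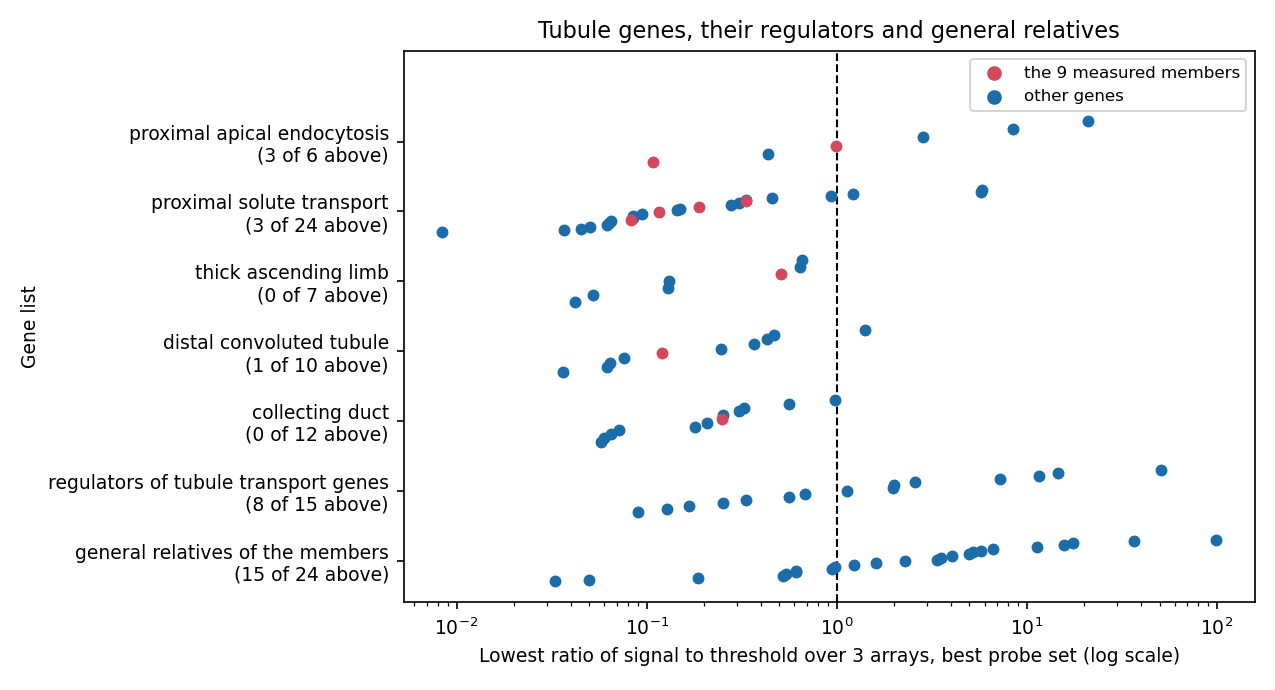
Lowest ratio of signal to threshold over 3 arrays for the best probe set of each gene (log axis), by gene list, with members in red and the dashed line at 1. Points right of the line are above background on every array: 0 of 9 members, 8 of 15 regulators and 15 of 24 general relatives.

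Of the markers of kidney epithelium, 4 of 8 (50%) were above background, near the 49.7% of all genes. These were KRT18, KRT8, CDH1 (1 of 2 probe sets) and PAX8 (1 of 8), while PAX2, CDH16 and EPCAM were not. The best PAX2 probe set gave 85.5, 128.9 and 145.9 in the sparse 48 h, 24 h and dense 48 h cultures and missed the threshold only in the sparse 48 h culture. EPCAM gave 134.8, 130.6 and 111.2 and missed it only in the dense 48 h culture. The podocyte list had WT1 and PODXL above background of 4 measured, the neurofilament and related genes NEFL, NEFM and INA 3 of 4, and stroma VIM and COL1A1 of 3. Endothelial (0 of 4) and leukocyte markers (0 of 2) were not above background. The defining tubule markers are the members themselves. The arrays correlated at 0.985 to 0.987 over probe sets above background, which are not independent replicates, the trimmed mean signal was 500.1 on each, and the RNA integrity numbers were 9.5 to 10.0. Of the reference, 8 probe sets of 6 genes were themselves above background, among them CRYGD, KLK3, KRT10, LDHC and OLIG2. With these genes left out of the reference, an alternative chosen after seeing the data, the thresholds fell to 101.4, 94.8 and 116.2, and LRP2 passed at 1.17 times the threshold on its lowest array.

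The promoters of the members were compared because no measured member was above background on every array. UMOD had no probe set listed and was not measured, but its window is counted in the shares of 10 members given below. The windows run from 250 bases before to 50 after the annotated start (RefSeq, GRCh38.p14), and all 10 members had one. CpG content, the count of CG pairs over that expected from the C and G counts, separates promoters used in most cells from many tissue-restricted ones. It reached 0.60 in 1 of 10 members, LRP2, against 65.8% of 15843 protein-coding promoters, 88.5% of those of genes above background and 43.6% of those of genes not above background. The median was 0.18 for the members, 0.86 for genes above background and 0.49 for the rest. LRP2, the member nearest to the threshold, had the highest value (0.76, with 23 CG pairs), followed by AQP2 (0.45) and AQP1 (0.32). SLC12A1, next nearest to the threshold by its lowest array, had 0.078 with 1 CG pair, and SLC22A6 held none. Whether CpG content goes with nearness to the threshold among the members was not tested. Of the segment lists, 5 of 6 promoters of genes above background reached 0.60 and 9 of 42 of the others, which include the measured members. The windows of LRP2 (chr2:169362485-169362784, minus strand) and SLC12A1 (chr15:48206052-48206351, plus strand), the members with the highest lowest-array ratio to the threshold, are shown for this contrast with each CG pair in capitals.
LRP2: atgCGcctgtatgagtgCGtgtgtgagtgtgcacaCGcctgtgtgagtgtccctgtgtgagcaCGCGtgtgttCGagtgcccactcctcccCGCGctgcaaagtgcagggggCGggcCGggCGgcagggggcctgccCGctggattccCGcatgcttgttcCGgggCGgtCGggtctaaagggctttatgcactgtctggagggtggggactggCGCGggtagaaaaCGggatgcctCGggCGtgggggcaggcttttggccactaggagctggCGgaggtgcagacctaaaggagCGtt
SLC12A1: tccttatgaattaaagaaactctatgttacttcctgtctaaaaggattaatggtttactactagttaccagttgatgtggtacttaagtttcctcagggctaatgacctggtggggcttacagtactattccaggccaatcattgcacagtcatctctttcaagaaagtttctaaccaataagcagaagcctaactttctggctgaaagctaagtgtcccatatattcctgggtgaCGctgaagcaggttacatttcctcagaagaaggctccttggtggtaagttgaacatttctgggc

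**Figure D5:**
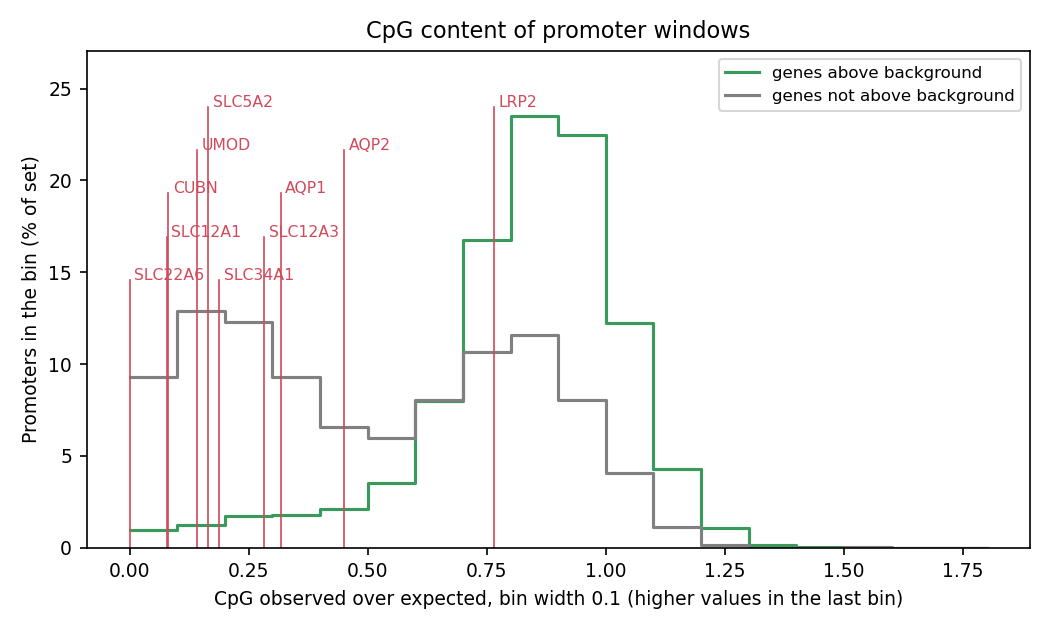
CpG observed over expected in promoter windows, as the percentage of promoters in each bin of 0.1, for genes above (green) and not above background (grey) in HEK-293T cells; red lines mark the members. LRP2 at 0.76 lies under the main peak of genes above background, in a bin with 10.6% of promoters of genes not above it. The other members lie between 0 and 0.45.

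Short motifs were searched on both strands of the same windows: TATAAA, one form of the TATA box, and TGACGTCA, the cAMP response element. Other forms of either motif were not searched. TATAAA was found in 5 of 10 members: AQP1, AQP2, SLC12A3, SLC34A1 and SLC22A6. The share was 9.63% for all protein-coding promoters and 13.5% for those of genes not above background. For segment-list genes not above background, the measured members included, it was 10 of 42 (23.8%). In AQP1, AQP2, SLC12A3 and SLC34A1 it began 29 to 31 bases before the start, and in SLC22A6 farther upstream. TGACGTCA was found in none of 10 and in 2.59% of all. A match is a description of the letters and not a bound site. The windows of SLC34A1 (chr5:177384184-177384483, plus strand) and SLC22A6 (chr11:62984918-62985217, minus strand) are shown for this difference in position, with the TATAAA match, on either strand, in capitals.
SLC34A1: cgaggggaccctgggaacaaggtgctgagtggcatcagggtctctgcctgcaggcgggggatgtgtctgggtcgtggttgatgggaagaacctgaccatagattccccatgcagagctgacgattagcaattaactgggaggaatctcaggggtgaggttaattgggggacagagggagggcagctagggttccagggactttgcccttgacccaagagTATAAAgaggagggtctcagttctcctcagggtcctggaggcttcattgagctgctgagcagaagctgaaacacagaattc
SLC22A6: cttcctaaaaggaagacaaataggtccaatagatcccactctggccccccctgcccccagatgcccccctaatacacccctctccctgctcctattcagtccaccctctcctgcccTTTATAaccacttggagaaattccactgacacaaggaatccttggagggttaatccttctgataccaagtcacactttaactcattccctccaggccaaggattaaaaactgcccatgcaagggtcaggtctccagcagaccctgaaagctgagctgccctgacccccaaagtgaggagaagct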

How the data were processed

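Total RNA (RNeasy columns) of 3 unstressed HEK-293T cultures was hybridized by the authors to U133 Plus 2.0 arrays. The deposited values are MAS5 signals, an intensity on a linear scale (GCOS 1.0 in the submitters' processing notes), scaled by the authors to a common trimmed mean. With 3 arrays, precision is limited by their number. Whether the cultures came from separate passages is not given in the sources used here, and p-values measure only the spread between these samples, which may be technical. For each probe set this spread rests on the 48 h pair, started from 375000 and 750000 cells, so any effect of seeding is part of it.

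Probe sets were paired with genes by GEO's platform annotation and symbols updated by gene ID to GRCh38.p14 (41097 probe sets with 1 gene, 1801 with several, 11777 with none). Genes were named from probe sets listed for 1 gene. A gene counted as above background when 1 or more of its probe sets exceeded the 95th percentile of the reference (127 receptor and 193 other probe sets) on all 3 arrays. Harvest times were compared by limma 3.58.1 (R 4.3.3, mean-variance trend) on log2(signal + 21.7), 21.7 being the median reference signal, over probe sets whose mean log2 signal exceeded that of the thresholds, with Benjamini-Hochberg adjustment. The steps were tested on simulated data whose spread between arrays was smaller than that of most members, so this does not cover dim signals. The members and lists were chosen with earlier results of these data known. All members were named, and of other lists the genes above background (the 5 highest where over 8) and the first 3 of the rest. KLHL3 and WNK4 were named in addition, after their values were seen. Alternatives were other percentiles, references, normalizations, added values, filters and each array left out.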

Additional observations from a re-analysis of the deposited data

How the results depend on the processing

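No member was above background, and this count was 1 (LRP2) with the 90th percentile, with receptors alone as reference, with 2 arrays sufficing, and with the reference without its own genes above background (chosen after seeing the data). Leaving out each array gave 0 to 1, with 1 without the 24 h culture. LRP2 then had a lowest ratio of signal to threshold of 1.37, 1.38, 1.43, 1.17 and 1.43, against 0.992, and under the other alternatives it ran down to 0.237 with the 99th percentile. By the same ratio, taken on the lowest array needed for a call, the other 8 measured members stayed below the threshold. This held under all 10 alternatives run for them, at 0.701 times at most (SLC12A1). Single arrays lay higher: SLC5A2 reached 0.968 times the main threshold in the dense 48 h culture. With the 90th percentile, SLC5A2 and the second SLC34A1 probe set passed in that culture. The first SLC12A1 probe set then passed in the sparse 48 h culture. The count over the segment lists was 7, against 4 with the 99th percentile and 11 with 2 arrays sufficing, and that over all genes (9834) stayed within 6758 and 10553. Between harvest times 88 probe sets were called (66 higher and 22 lower at 24 h), against 10 after scaling to equal medians (5 and 5) and 0 without limma's mean-variance trend (1381 at an unadjusted p under 0.05). The LRP2 difference stayed negative and short of the threshold under each alternative with a test, and without 1 or the other 48 h array it was -0.85 and -0.52 with no test. Signal over background limits what dim probe sets show. No paired analysis was possible because the 24 h group holds 1 sample.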

Other observations

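Besides LRP2, 3 genes of the segment lists exceeded the threshold on exactly 2 of 3 arrays. The phosphate carrier SLC34A3 did so in the sparse 48 h and the 24 h culture, at 1.71 and 3.58 times the threshold, and lay at 0.459 times in the dense 48 h culture. The dicarboxylate carrier SLC13A3 passed in the 24 h and dense 48 h cultures on both of its probe sets that passed on 2 arrays, which gave 100.9, 167.6 and 140.0, and 109.4, 194.0 and 162.4, in the sparse 48 h, 24 h and dense 48 h cultures. The probe sets of the water and glycerol channel AQP3 did not pass in the same cultures. One gave 119.8, 155.2 and 71.1 and passed in the sparse 48 h and 24 h cultures, and the other, described above, gave 115.6, 212.7 and 137.04 and passed in the 24 h and, at 1.00 times the threshold, the dense 48 h culture. All these probe sets were brightest in the 24 h culture, where both LRP2 probe sets were dimmest, and no difference between the cultures was tested for them.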
